A study of Mus musculus with 7 samples.

Results

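Cadherins are calcium-dependent adhesion proteins that hold cells together and sort them by type. The numbered cadherins (Cdh genes) and the protocadherins (Pcdh genes) were followed here in 7 bulk RNA-seq libraries from mouse brain. Members were taken by symbol, as every gene of the count table written Cdh plus a number, or starting with Pcdh. This gave 92 of 55367 genes: 23 cadherins, 57 protocadherins of the 3 gene clusters (13 Pcdha, 22 Pcdhb and 22 Pcdhg) and 12 protocadherins outside the clusters. No measured value enters that rule, but the gene family was proposed with results of these libraries known, so counts of members are given as descriptions.

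The libraries came from C57BL/6J mice at P90, and their label names projection neurons from the mPFC to the LHB (medial prefrontal cortex and lateral habenula). Of the 7, 3 were labelled noCRS and 4 were labelled CRS, in a series whose title concerns chronic stress and depression. The labels do not spell out CRS, do not describe its procedure and do not say how the neurons were marked or isolated. Nor do they tie libraries to animals, so every p-value here speaks of the spread among these 7 libraries, part or all of which could be technical.

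The libraries held 28677703 to 39965667 counts. CRS replicate 2 stood apart from the rest on principal component 1 (30.4% of the variance) and had the fewest genes with a count, 16938 against 18604 to 23399 in the others. Markers of excitatory neurons summed to 20.1 to 39.9 CPM (read counts scaled to the TMM effective library size) in noCRS and to 496 to 747 CPM in CRS. Pan-neuronal markers summed to 358 to 434 CPM in noCRS and 2951 to 4155 CPM in CRS. Snap25 made up most of the CRS sum, with 2747 CPM on average of 3674 CPM, against 158 CPM in noCRS. Map2 did not rise, at 186 CPM in noCRS and 175 CPM in CRS, while the log2 fold change was positive for 7 of the 8. Astrocyte markers summed to 10772 to 14032 CPM in noCRS and 6342 to 12937 CPM in CRS, and oligodendrocyte markers to at least 26349 CPM in every library. Against the neuronal label, neuronal markers were therefore low beside glial ones, most of all in noCRS. Markers of oligodendrocyte precursors summed to 3599 to 3821 CPM in noCRS and 1856 to 2182 CPM in CRS. In edgeR 5 of the 8 were called lower, against 0.230% of all genes. Each of these calls was lost with some library left out, and those of Cspg4 and Gpr17 whichever library was left out. The neuronal and precursor sums did not overlap between the groups, while those of astrocytes and oligodendrocytes did. Inhibitory neuron markers, at 36.2 to 43.8 CPM in noCRS and 161 to 678 CPM in CRS, did not overlap either. The same held for mural and fibroblast markers, at 42.1 to 125 CPM in noCRS and 139 to 465 CPM in CRS. These 2 sums do not stand for every marker on their lists. In CRS, Sst averaged 168 CPM of a mean inhibitory sum of 341 CPM. Pvalb averaged 2.15 CPM in noCRS and 2.17 CPM in CRS. The log2 fold change was positive for 6 of 6 inhibitory markers tested, against 49.2% of all genes. For mural and fibroblast markers it was positive for 4 of 7, and edgeR called 0 of them. The part of these sums in the results below was not tested. In bulk samples, fewer cells of a type and less RNA per cell cannot be told apart.

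Classical cadherins of type I and type II bind their like on the neighbouring cell and are anchored to actin through catenins. Clustered protocadherins are made from arrays of variable first exons, each with its own promoter. In the Pcdha and Pcdhg clusters the chosen variable exon is spliced to constant exons shared by the whole cluster, and single neurons use few variable exons, which gives each a surface identity. Protocadherins outside the clusters, of the delta-1 and delta-2 classes and a few others, act in axon and dendrite growth and in synapse formation.

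Of the 92 members, 81 passed the default expression filter of edgeR: 15 cadherins, 55 clustered protocadherins and 11 others. Of the rest, 4 (Cdh1, Cdh16, Cdh17 and Cdh26) had no count in any library, and 7 had too few counts. The quasi-likelihood test of edgeR, adjusted over 17833 genes by Benjamini-Hochberg with a threshold of 0.05, called 1 of the 81, Cdh9, which rose. Over all genes 2.30% were called, 2.07% as higher and 0.230% as lower, beside 1.23% of the members. DESeq2 called 18 members and 8.96% of all genes, and limma-voom 3 members and 3.58% of all genes. The median log2 fold change, CRS over noCRS, was 0.24 for the cadherins, -0.53 for the clustered protocadherins and -0.49 for the other protocadherins, against -0.016 for all genes tested. The log2 fold change was positive for 33 of the 81 members, or 40.7%, against 49.2% of all genes. The Pcdha and Pcdhg rows share reads, as described below. With the shared reads tested once per cluster, the clustered median was -0.17 over 46 features, the median over all 72 features was -0.084, and 32 of the 72, or 44.4%, were positive. The cadherin median was the same with Cdh9 and Cdh15, which have no noCRS count, placed at their lower bounds. Both bounds lie far above the median, so this change could not move it.

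**Figure D1:**
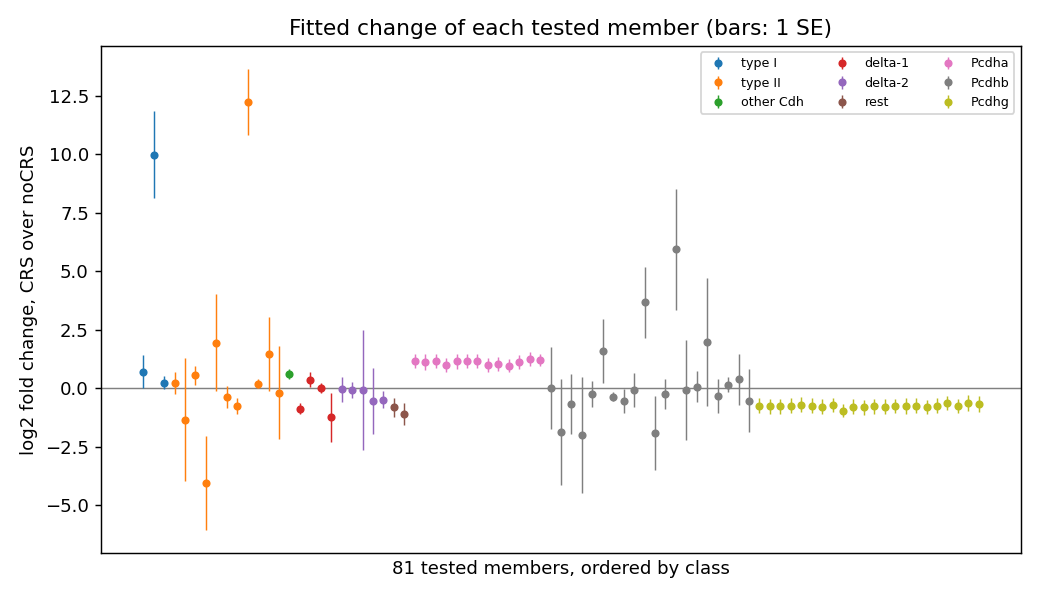
Log2 fold change of each of the 81 tested members, CRS over noCRS, from the edgeR fit, ordered and coloured by class, with bars of 1 SE. The 13 Pcdha genes lie together above 0 and the 22 Pcdhg genes together below it, and the rows of each cluster share reads. The 2 highest points are Cdh9 and Cdh15, whose fitted size depends on the default prior count of the fit since noCRS is at 0.

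Cdh9 is a type II cadherin known for marking subsets of neurons and their synapses. It lies on chromosome 15 from 16728756 to 16857094 (GRCm38), on the plus strand, and is protein-coding. It had 0 counts in all 3 noCRS libraries, and 776, 790, 136 and 708 counts in CRS replicates 1 to 4. On the CPM scale the CRS values were 23.4, 24.6, 4.49 and 18.4, a mean of 17.7 ± 9.24 (SD, n = 4), with CRS replicate 3 the lowest. The groups do not overlap. Against the noCRS floor of 3 counts over the group, 0.0286 CPM, Cdh9 was at least 622-fold higher (edgeR adjusted p = 0.0122). With each library left out in turn the adjusted p lay between 0.018 and 0.047. The call was lost with noCRS replicate 1 and CRS replicate 2 left out together and in limma-voom (adjusted p = 0.063), and was kept in DESeq2 (adjusted p = 3.5e-14). An antisense gene, Gm49127, covers 6.3% of the exon length of Cdh9. It had 0 counts in noCRS and 199, 180, 22 and 137 in CRS, and the library kit does not mark strand, so reads in that stretch cannot be assigned to one of the pair.

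Cdh15 is a type I cadherin known as M-cadherin of muscle. It lies on chromosome 8 from 122847966 to 122867397, on the plus strand. It also had 0 counts in every noCRS library, and 228, 150, 65 and 42 counts in CRS. Its CRS values of 6.88, 4.68, 2.15 and 1.09 CPM were lower than those of Cdh9 in each library, and at least 130-fold above the noCRS floor. It missed the threshold in edgeR (adjusted p = 0.0546) and passed it in limma-voom (adjusted p = 0.0477) and DESeq2 (adjusted p = 6.4e-07). The start regions of this pair are shown because they are the 2 members with no noCRS count and a count in every CRS library. That pattern is not particular to them, and its share over all genes is not given here. Tmem119, on the microglia list, had 0 counts in noCRS and 163, 1, 64 and 11 in CRS. The sequences of the pair follow. These sequences are windows around RefSeq starts on GRCm38.p6, chr15:16728665-16728964 for Cdh9 and chr8:122848124-122848423 for Cdh15, both on the plus strand. The RefSeq starts lie 159 bases (Cdh9) and 408 bases (Cdh15) downstream of the gene starts in the count table, so 209 and all 300 window bases fall inside the genes as counted. Capitals mark each match to CANNTG, the E-box letters, which read the same on both strands.
Cdh9: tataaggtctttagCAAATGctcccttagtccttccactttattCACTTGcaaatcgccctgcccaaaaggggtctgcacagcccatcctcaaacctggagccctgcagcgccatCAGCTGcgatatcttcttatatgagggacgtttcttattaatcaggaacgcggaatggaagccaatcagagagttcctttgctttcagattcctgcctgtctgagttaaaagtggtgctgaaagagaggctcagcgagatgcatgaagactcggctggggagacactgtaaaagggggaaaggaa
Cdh15: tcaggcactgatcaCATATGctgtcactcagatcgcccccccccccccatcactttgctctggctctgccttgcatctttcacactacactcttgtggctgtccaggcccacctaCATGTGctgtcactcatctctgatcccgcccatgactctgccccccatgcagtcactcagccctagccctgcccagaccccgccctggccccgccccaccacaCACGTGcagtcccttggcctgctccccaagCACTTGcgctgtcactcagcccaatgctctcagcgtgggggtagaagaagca

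The Cdh9 window holds 3 such matches and the Cdh15 window 4. Of 32851 RefSeq promoter windows of the same length, 72.3% hold at least 1, and of the 25 windows found for 22 members, 60% do. TGANTCA and TGACGTCA, searched on both strands, are in neither window, and in 7.81% and 1.79% of all windows. The motifs were picked after the values were seen, and a match is a description of letters.

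Cdh13, or T-cadherin, lacks the cytoplasmic tail and is tied to the membrane by a lipid anchor. It was the highest cadherin per kilobase of exon, at 24.7 CPM per kilobase over the 7 libraries. Its values were 282, 160 and 196 CPM in noCRS and 311, 361, 316 and 316 CPM in CRS. Every CRS library lay above every noCRS library, and the log2 fold change was 0.62 ± 0.21 (SE; edgeR adjusted p = 0.203), which did not pass. Cdh6, a type II cadherin of brain region boundaries, had 61.9, 59.3 and 94.1 CPM in noCRS and 23.5, 58.6, 45.3 and 41.7 CPM in CRS. The groups do not overlap but CRS replicate 2 came within 1 CPM of noCRS (log2 fold change -0.76 ± 0.33, edgeR adjusted p = 0.361). Cdh22 had few counts, 30, 38 and 210 in noCRS and 21, 0, 0 and 1 in CRS. In CPM every CRS library lay below every noCRS library (log2 fold change -4.06 ± 2.01, edgeR adjusted p = 0.447).

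The cadherins next to Cdh13 in level were Cdh10 at 13.8, Cdh11 at 11.0 and Cdh19 at 11.0 CPM per kilobase. Cdh10 and Cdh11 are type II cadherins of neurons and mesenchymal cells, and Cdh19 is known from the glial lineage. Their groups overlapped: Cdh10 averaged 128 ± 5.31 CPM (SD, n = 3) in noCRS and 147 ± 32.1 (n = 4) in CRS, Cdh11 113 ± 55.7 and 87.2 ± 42.5, and Cdh19 37.3 ± 17.0 and 54.5 ± 23.6. Cdh2, the N-cadherin of neural tissue, averaged 48.5 ± 8.87 CPM in noCRS and 57.2 ± 14.0 CPM in CRS (edgeR adjusted p = 0.839). Cdh4, or R-cadherin, had 36.9 CPM in CRS replicate 2 and 5.02 to 13.2 CPM in the other libraries, and its log2 fold change went from 0.71 to -0.13 without that library. Cdh20 averaged 13.7 ± 3.11 CPM in noCRS and 15.9 ± 4.70 CPM in CRS. Cdh8, of excitatory circuits, ranged from 0 to 4.05 CPM in noCRS and from 0 to 13.0 CPM in CRS, with a 0 in each group. Cdh5, the cadherin of endothelial junctions, had counts in 1 noCRS and 1 CRS library and was not tested. Summed over the 23 cadherins, the noCRS libraries held 650 ± 112 CPM (SD, n = 3) and the CRS libraries 789 ± 56.3 CPM (SD, n = 4), and the ranges met at noCRS replicate 1.

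**Figure D2:**
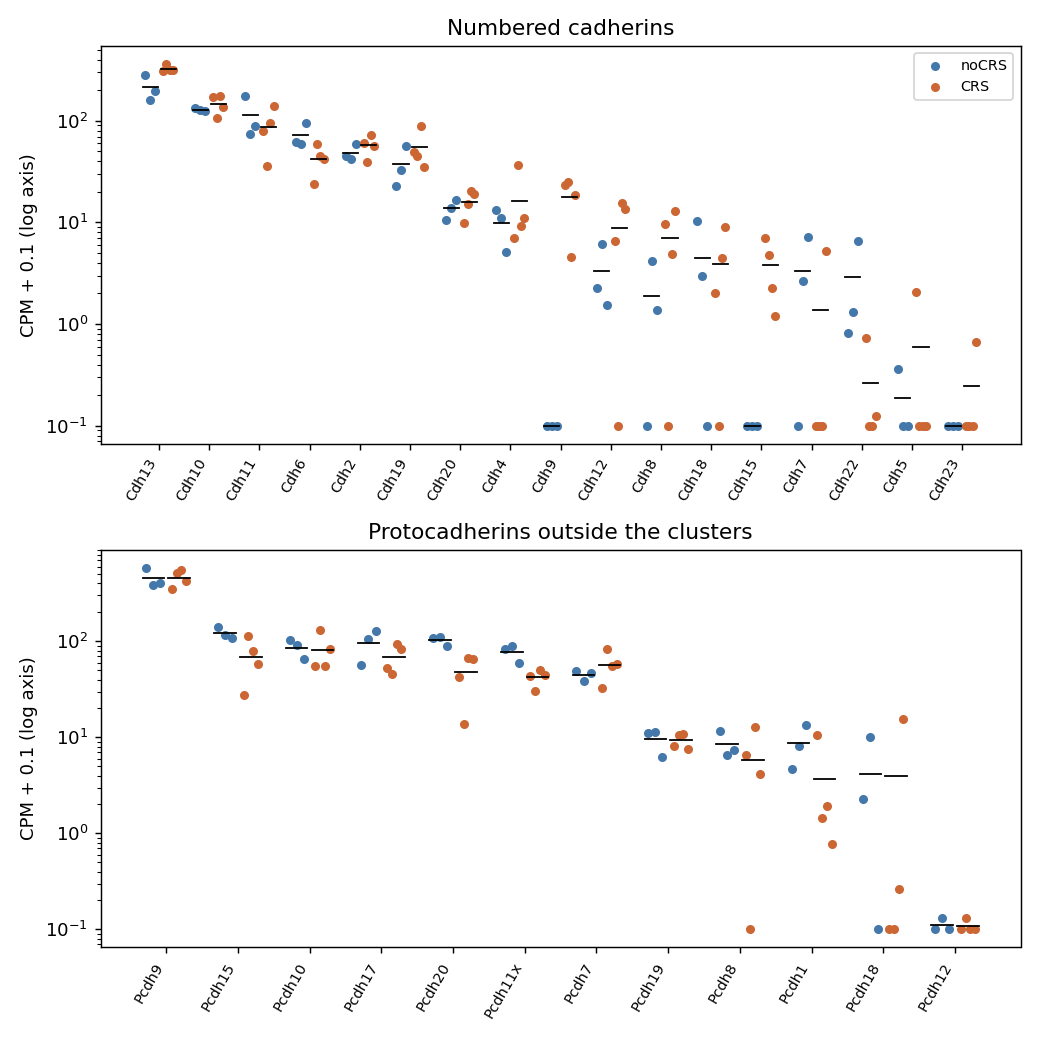
CPM plus 0.1 on a log axis for the cadherins above 0.05 CPM on average (upper panel) and the 12 protocadherins outside the clusters (lower panel), ordered by mean level; points are libraries, 3 noCRS and 4 CRS, and lines their means. Cdh9 and Cdh15 sit at the bottom of the axis in noCRS and above it in every CRS library, while Pcdh9 at the top overlaps between groups.

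Outside the clusters, edgeR called 0 of the 11 tested protocadherins, DESeq2 1 and limma-voom 0; 2 (18.2%, against 13.6% of all genes) had an unadjusted p under 0.05 in edgeR. The log2 fold change was positive for 2 of the 11, or 18.2% against 49.2% of all genes, but the signs of Pcdh9, Pcdh10 and Pcdh19 changed with the scaling or the libraries used. Pcdh11x, a delta-1 protocadherin on the X chromosome (120290259 to 120910619), had 82.3, 88.7 and 60.01 CPM in noCRS and 43.1, 30.5, 50.3 and 44.2 CPM in CRS. Every CRS library was below every noCRS library, by 0.87 ± 0.25 (SE) on the log2 scale in the fit (log2 fold change -0.87, edgeR adjusted p = 0.138). It was past the threshold in DESeq2 (adjusted p = 0.0057) and not in limma-voom (0.093).

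Pcdh20, on chromosome 14 from 88464743 to 88471396, had 108, 110 and 88.4 CPM in noCRS and 42.4, 13.8, 67.5 and 65.5 CPM in CRS. The groups do not overlap and CRS replicate 2 was the lowest (log2 fold change -1.11 ± 0.47, edgeR adjusted p = 0.340). Pcdh15, best known as part of the hair cell tip link, had 141, 117 and 109 CPM in noCRS and 27.8, 113, 78.7 and 58.0 CPM in CRS, where CRS replicate 2 lay inside the noCRS range (edgeR adjusted p = 0.441). Pcdh15 is also a transcript of oligodendrocyte precursors, whose marker sum was lower in every CRS library, at 1991 CPM in CRS replicate 2. A link between that sum and Pcdh15 was not tested.

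Pcdh9, a delta-1 member, had the highest level per kilobase of all members outside the Pcdha and Pcdhg clusters, 67.8 CPM per kilobase. Its mean was 459 ± 109 CPM over noCRS (SD, n = 3) against 461 ± 88.1 CPM over CRS (SD, n = 4). Its log2 fold change of 0.0059 had an SE of 0.21. The delta-2 members Pcdh10, Pcdh17 and Pcdh19, which work in axon growth and synapse turnover, had overlapping groups: Pcdh10 averaged 86.0 and 81.3 CPM, Pcdh17 96.8 and 68.9 CPM, and Pcdh19 9.46 and 9.17 CPM in noCRS and CRS. Pcdh8, an activity-regulated protocadherin, ranged from 6.52 to 11.6 CPM in noCRS and from 0 to 12.6 CPM in CRS. Pcdh7 ranged from 38.1 to 48.7 CPM in noCRS and from 32.6 to 82.7 CPM in CRS, and 21.1% of its exon length is shared with 4932441J04Rik.

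The rows of the Pcdha and Pcdhg clusters are not separate measurements. The 13 Pcdha genes share 3 exons on chromosome 18, at 37156155 to 37156213, 37159265 to 37159353 and 37184946 to 37187657, together 2860 bases. The 22 Pcdhg genes share 3 further on, at 37825021 to 37825079, 37833265 to 37833353 and 37839903 to 37841870, together 2116 bases. The lowest count of the Pcdhg cluster was held to the read by 5, 6 and 3 of the 22 genes in noCRS and by 9, 15, 8 and 7 in CRS. That of the Pcdha cluster was held by 9, 1 and 7 of the 13 genes in noCRS and by 7, 6, 3 and 1 in CRS, so noCRS replicate 2 and CRS replicate 4 had no tie there. That lowest count was therefore taken as the reads of the shared exons, counted for every gene, and what a gene had above it as its gene-specific reads. This is an inference from the ties, since no source used here says how reads over several genes were counted. A first check of it failed: 4 genes outside the family (Gm42416, Gm37013, Gm37388 and Gm38182) overlap the Pcdhg shared exons, and 0 of the 4 reached the shared count in any library. They hold only 91 to 628 of the 2116 bases, so reads in the remainder do not touch them. Gm37013 and Gm37388, which hold the same number of shared bases, had the same count in 3 libraries (106, 148 and 208). They differed in the other 4, with 185 against 174 in noCRS replicate 2 and 27 against 1, 89 against 74 and 89 against 75 in CRS replicates 2 to 4.

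On this reading the shared Pcdha count was 632, 770 and 639 in noCRS and 1188, 1798, 1253 and 1656 in CRS. In CPM these were 15.2, 24.7 and 19.7 in noCRS and 35.9, 56.1, 41.4 and 43.2 in CRS. Every CRS library lay above every noCRS library, with a ratio of means of 2.22. Tested once in place of 13 times, the log2 fold change was 1.15 ± 0.30 (SE; edgeR adjusted p = 0.110), which did not pass, and with a library left out the adjusted p was 0.134 to 0.280. DESeq2 gave an adjusted p of 0.0014 and limma-voom 0.087. The 13 Pcdha rows had log2 fold changes of 0.97 to 1.26, and the C-type Pcdhac2 had the smallest adjusted p (0.0565) among them, followed by Pcdhac1 (0.0854), Pcdha6 (0.108) and Pcdha3 (0.109), all from edgeR.

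The shared Pcdhg count was 3999, 3233 and 2333 in noCRS and 2920, 1343, 1279 and 1573 in CRS. In CPM it was 96.5, 103.8 and 71.9 in noCRS and 88.2, 41.9, 42.2 and 41.0 in CRS. CRS replicate 1 lay within the noCRS range and the other 3 CRS libraries lay below it (log2 fold change -0.77 ± 0.32, edgeR adjusted p = 0.342, 0.072 to 0.552 with a library left out). If the inferred way of counting holds, the coverage of these exons was not even, but coverage itself was not examined. Gm42416 and Gm38182, which hold 446 and 628 of the 2116 bases, had 0 counts in CRS replicate 2, where the shared count was 1343. In the other libraries they had 225 to 655 counts.

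Per kilobase, the shared exons of Pcdha stood at 0.117, 0.176 and 0.203 times those of Pcdhg in noCRS and at 0.301, 0.991, 0.725 and 0.779 times in CRS. The ratio, which does not depend on library scaling, did not overlap between the groups, and no test was made of it. It rests on the inferred shared counts, and on exons whose coverage would then be uneven.

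**Figure D3:**
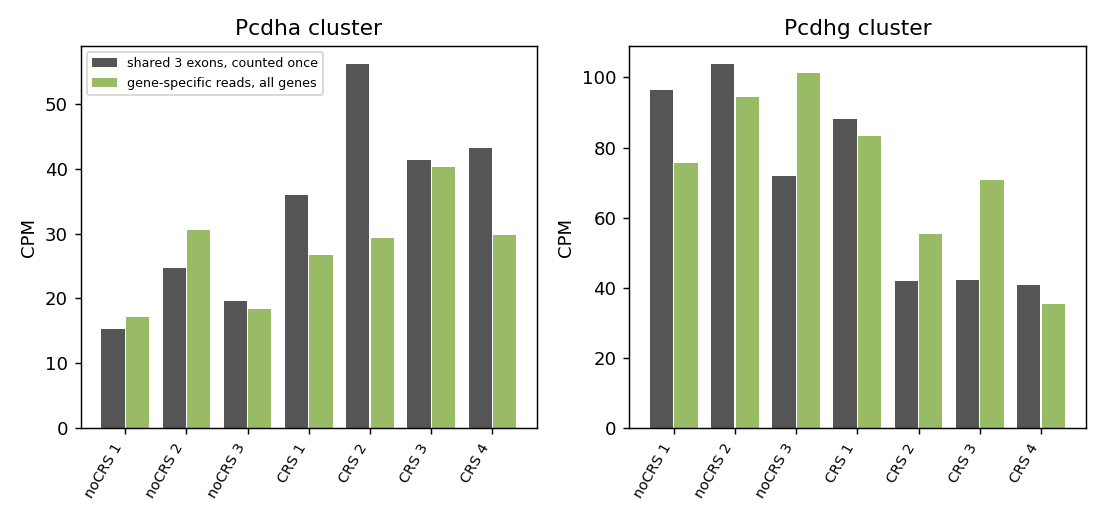
CPM per library in the Pcdha (left) and Pcdhg (right) clusters: grey bars are the 3 shared exons counted once, green bars the sum of gene-specific reads over all genes of the cluster. Grey bars of Pcdha are higher in all 4 CRS libraries, at 35.9 to 56.1 CPM against 15.2 to 24.7 CPM; those of Pcdhg are lower in CRS replicates 2 to 4 and not in CRS replicate 1.

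Gene-specific reads can include reads of other genes that overlap a variable exon. Exon length shared with any other gene was 100% for Pcdhga10, 93.0% for Pcdha4 and 73.6% for Pcdhga11. It was 45.1% for Pcdhga2 and 53.5% for Pcdha1. The sums of gene-specific reads overlapped between groups in both clusters. Summed over the Pcdha genes they were 17.2, 30.5 and 18.4 CPM in noCRS and 26.8, 29.3, 40.3 and 29.8 CPM in CRS. Over the Pcdhg genes they were 75.7, 94.3 and 101.3 CPM in noCRS and 83.4, 55.4, 70.8 and 35.5 CPM in CRS, where CRS replicate 1 again lay within the noCRS range and the other 3 below it. Of 24 genes of both clusters testable on these reads, edgeR called 0, against 2.30% of all features in that fit. An unadjusted p under 0.05 in edgeR was seen for 0, against 13.4% of all features. DESeq2 and limma-voom called 0. Pcdhga7 and Pcdhgb4, chosen after their values were seen, were the 2 of 24 whose groups did not overlap. Over all features, 16.8% did not overlap. Pcdhga7 had 20.2, 14.1 and 25.3 CPM of gene-specific reads in noCRS and 0, 2.85, 4.73 and 6.66 CPM in CRS (edgeR adjusted p = 0.485). Of its exon length, 50.9% is shared with other genes, among them Gm37165 outside the family.

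Which variable exons were seen differed from library to library within a group. Counts came and went in this way outside the clusters too. Cdh7 had 0, 80 and 232 counts in noCRS and 0, 0, 0 and 195 in CRS. Of 17833 genes tested, 4770 had 0 counts in some library. The cause of the pattern in the clusters was not tested. At least 10 gene-specific reads were present for 4, 10 and 3 of the 13 Pcdha genes in noCRS and 6, 6, 9 and 10 in CRS. No Pcdha gene had them in all 7 libraries, and Pcdha1 and Pcdha7 had them in none. Pcdhac2 had 235, 61 and 0 gene-specific reads in noCRS and 312, 202, 159 and 268 in CRS. Of the Pcdhg genes, 13, 14 and 12 of 22 had at least 10 in noCRS and 13, 7, 13 and 14 in CRS. Pcdhga11, Pcdhga12, Pcdhgc3 and Pcdhgc4 had them in every library, and Pcdhga2 in none. Whole-row values of the C-type Pcdhgc3 had means of 101 ± 9.82 CPM over noCRS (SD, n = 3) against 59.7 ± 25.2 CPM over CRS (SD, n = 4), and those of Pcdhgc5 90.8 ± 16.6 and 56.7 ± 26.1 CPM, both mostly the shared reads. The same holds for the rows of Pcdhga6 and Pcdhgb7, whose CRS means were 57.2 and 57.1 CPM.

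**Figure D4:**
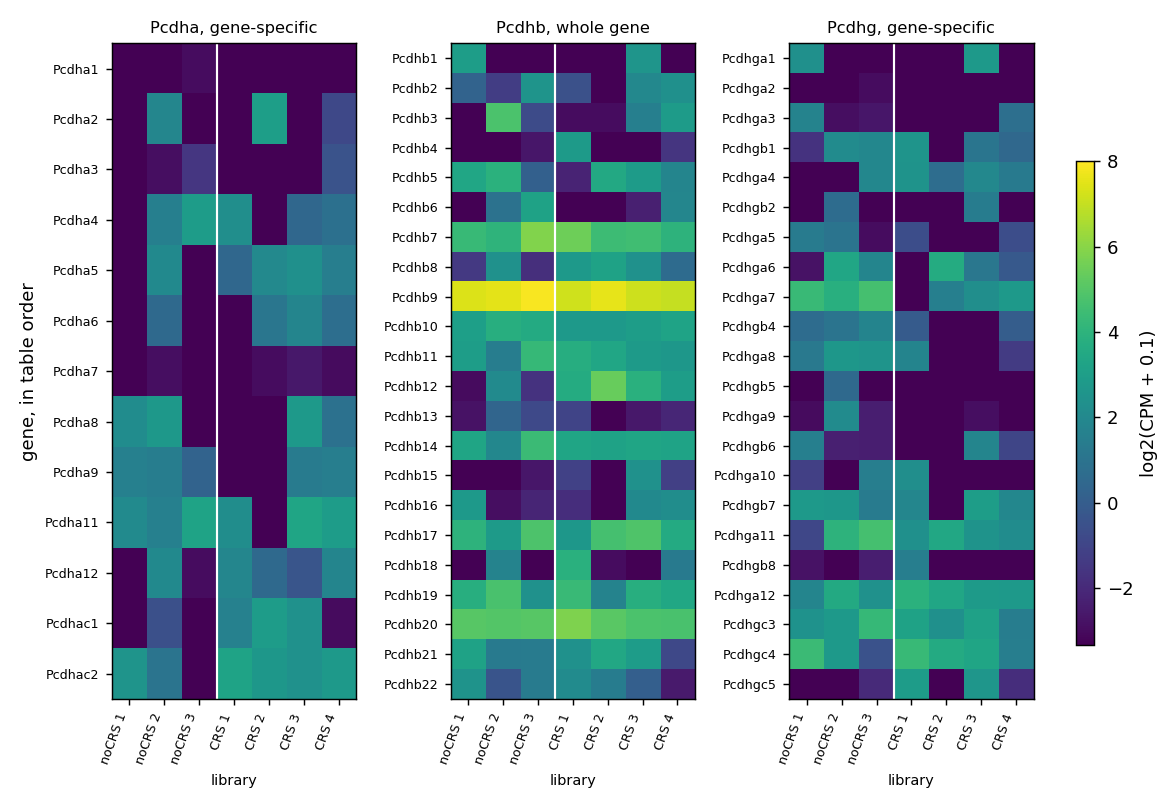
Log2(CPM + 0.1) by colour for each clustered gene (rows) and library (columns, noCRS left of the white line): gene-specific reads for Pcdha and Pcdhg, whole genes for Pcdhb. Most rows switch between dark and bright within a group, as for Pcdhac2, with 0 to 235 reads among noCRS libraries; Pcdhb9 is bright throughout.

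The Pcdhb genes have no constant exons common to the cluster, so their rows are nearly separate measurements. The exceptions are Pcdhb21 and Pcdhb22, which share 455 exon bases (9.7% and 6.9% of their exon lengths), and Pcdhb12, described below. Of 20 tested, edgeR called 0, DESeq2 1 and limma-voom 0, against 2.30%, 8.96% and 3.58% of all genes. In edgeR 2 had an unadjusted p under 0.05 (10% against 13.6% of all genes). The log2 fold change was positive for 8 (40% against 49.2% of all genes), and the median was -0.17. Pcdhb9 was the most abundant per kilobase, at 55.8 CPM per kilobase, with 168, 186 and 233 CPM in noCRS and 146, 192, 140 and 129 CPM in CRS (edgeR adjusted p = 0.491). The groups overlapped at CRS replicate 2. Of the 22 Pcdhb genes, 9 had at least 10 counts in all 7 libraries and 13 in some of them. Pcdhb12, chosen after its values were seen, had 0.024, 4.21 and 0.216 CPM in noCRS and 12.5, 41.1, 14.4 and 7.69 CPM in CRS (edgeR adjusted p = 0.328), and 63.5% of its exon length is shared with Gm37446, so its value is uncertain. At least 1 count was seen for 17, 19 and 20 of the 22 Pcdhb genes in noCRS and 20, 15, 20 and 21 in CRS, with CRS replicate 2 the lowest.

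How many members differed between groups moved with how the shared reads were counted. Over the 81 rows, 36 had an unadjusted p under 0.05 in edgeR, or 44.4% against 13.6% of all genes. Of these, 18 were higher and 18 lower in CRS, against 9.67% and 3.91% of all genes. Groups did not overlap for 23 rows, or 28.4% against 16.9%, with 17 higher and 6 lower against 10.1% and 6.74% of all genes. With each cluster's shared exons tested once and each gene on its own reads, 10 of 72 features had an unadjusted p under 0.05, or 13.9% against 13.4%. Groups did not overlap for 11 of the 72, or 15.3% against 16.8%. Both shares were then near the background, and Cdh9 was again the 1 call.

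Genes that work with cadherins and protocadherins were read from lists drawn up for this family, and edgeR called 0 of their 43 tested genes. An unadjusted p under 0.05 was seen for 8, or 18.6% against 13.6% of all genes. DESeq2 called 4, or 9.30% against 8.96%, and limma-voom 1, or 2.33% against 3.58%. The log2 fold change was positive for 21, or 48.8% against 49.2%. Groups did not overlap for 7, or 16.3% against 16.9%, with 2 higher and 5 lower in CRS. Of the 10 catenins, which link cadherins to actin, 3 had a positive log2 fold change. Ctnna1 stood at 161 ± 66.3 CPM in noCRS (SD, n = 3) against 197 ± 24.5 CPM in CRS (SD, n = 4), and Ctnnb1 128 ± 20.2 and 142 ± 25.1 CPM. Of 24 other cadherin-superfamily genes, such as the calsyntenins and the Fat and Celsr genes, 10 were tested and 7 were positive, and Clstn1 averaged 73.1 ± 3.38 and 87.0 ± 36.3 CPM. Of 12 regulators of the clustered promoters, where CTCF and cohesin loop an enhancer to the chosen promoter, 11 were tested and 3 were positive. Ctcf averaged 64.1 ± 13.8 and 63.6 ± 10.7 CPM, and the cohesin subunit Smc3 196 ± 47.5 and 189 ± 21.2 CPM. Setdb1, a histone methyltransferase gene, at 65.5 ± 10.7 and 36.5 ± 11.4 CPM, and the cohesin loader gene Nipbl, at 57.2 ± 5.21 and 40.8 ± 2.87 CPM, had lower CRS values without overlap (edgeR adjusted p = 0.216 and 0.334). These and the genes named next other than Fyn were chosen after their values were seen. Of 12 genes of protocadherin signalling and cleavage, 8 were positive. The kinase gene Fyn had 286, 319 and 371 CPM in noCRS and 198, 270, 220 and 191 CPM in CRS, with no overlap (log2 fold change -0.57 ± 0.17, edgeR adjusted p = 0.174). Wasf1 and Ptk2b did not overlap in the other direction (log2 fold changes 1.06 ± 0.28 and 2.97 ± 0.85, edgeR adjusted p = 0.116 and 0.143). Taok2 and, among the superfamily genes, Dchs1 were lower without overlap (log2 fold changes -1.41 ± 0.57 and -2.43 ± 1.83, edgeR adjusted p = 0.311 and 0.702).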

How the data were processed

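The authors deposited raw counts per gene with exon coordinates, 1 column per library, for 7 libraries (3 noCRS, 4 CRS). FastQC, HISAT2, HISAT, DESeq2 and featureCounts stand in the submitters' processing notes, without versions, beside the build GRCm38; the column names look like those of another aligner, so the aligner is not settled. No source used here says how multiply aligned or multiply overlapping reads were counted.

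The test was edgeR 4.0.16 under R 4.3.3 (TMM, default filter, quasi-likelihood test, all 7 libraries, no covariate), with DESeq2 1.42.0 and limma-voom (limma 3.58.1) as alternatives. The threshold was 0.05 and log2 CPM used a prior count of 2. The fitted log2 fold changes of edgeR used its own default prior count instead. Members and lists were chosen with earlier results of these data known. Named genes are, per subgroup, the called members, the 4 of smallest p, the 4 highest per kilobase and a list of well-studied members; others are said to be chosen after their values were seen. Gene-specific reads are a gene's count minus the lowest count of its cluster in that library; this, and leaving out noCRS replicate 1 with CRS replicate 2, was added after seeing the data. Of 92 members, 91 matched GENCODE M21, with the same coordinates. A floor of 3 counts over a group came to 0.0286 CPM for noCRS and 0.0224 CPM for CRS and covers counting error only. The fits were tested on 1 simulated data set, where DESeq2 made more false calls than edgeR or limma-voom.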

Additional observations from a re-analysis of the deposited data

Results flagged for a closer look

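In 8 of the 32 named genes, 1 of the 4 CRS libraries lay far from the other 3. The usual rate of about 1 in 20 groups holds for independent, normally spread values and cannot be set against this count. The named genes were partly chosen by p or level, and 4 of the 8 rows share reads. For Cdh5 any single library with a count would be flagged, since the others are at 0. For Cdh13 it was CRS replicate 2, at 361 CPM against 311 to 316. For Cdh4 it was CRS replicate 2, at 36.9 CPM against 6.92 to 10.9. For Cdh5 it was CRS replicate 1, at 1.96 CPM against 0. For Cdh22 it was CRS replicate 1, at 0.634 CPM against 0 to 0.026. The other 4 were Pcdhg rows that share most of their reads, all high in CRS replicate 1: Pcdhga11 at 93.2 CPM, Pcdhgb7 at 91.7 CPM, Pcdhgc3 at 97.2 CPM and Pcdhgc5 at 95.6 CPM, against 41.2 to 52.9 CPM in the other CRS libraries.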

How the results depend on the processing

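The count of called members, 1, higher in CRS, became 18 (16 higher) in DESeq2, 3 (2 higher) in limma-voom, 2 (both higher) with at least 1 CPM in 4 libraries, 4 (all higher) at a threshold of 0.1, and 0 at 0.01. The count was 1 with each other scaling, with no expression filter and with shared exons tested once. With each library left out it was 1 to 2, with 2 (Cdh9 and the lower Pcdhga7, edgeR adjusted p = 0.032) without CRS replicate 1. Without noCRS replicate 1 and CRS replicate 2 together it was 0. The replicate block also gave 0, and 12 calls over all genes against 410. Same-numbered libraries showed no sign of deviating together (r = 0.015, -0.0032 and 0.023). A small shared effect could go unseen in these values, so whether the numbers pair the samples is not known. Of the 18 DESeq2 calls, 13 are Pcdha rows that share reads; with shared exons tested once DESeq2 called 5. DESeq2 called 8.96% of all genes and limma-voom 3.58%. The cadherin median moved to 0.59 in DESeq2 and 0.61 with no filter, that of the other protocadherins to -0.82 in limma-voom and -0.91 with the replicate block, and that of all genes to -0.17 with library totals only; the cause was not tested. The log2 fold change of 5 named genes changed sign in 20 of their alternatives, at adjusted p of 0.843 or more. Pcdh9 (0.0059) became -0.023 in DESeq2, -0.029 with DESeq2 size factors, -0.15 with library totals only, -0.041 with upper-quartile factors and -0.014 with at least 1 CPM in 4 libraries, and ran from -0.11 to 0.23 with a library left out. Cdh11 (-0.37) became 0.060 in limma-voom and ran from -0.71 to 0.12 with a library left out, Pcdh10 (-0.081) from -0.43 to 0.081, Cdh4 (0.71) from -0.13 to 1.02 and Pcdh19 (-0.045) from -0.28 to 0.11; Pcdh19 became 0.082 with the replicate block. Rows of the 57 clustered genes with 10 counts or more, shared reads included, averaged 51.0 in noCRS and 51.5 in CRS; on gene-specific reads they averaged 34.7 in noCRS and 36 in CRS. Of the named genes' values, 433 kept their direction and side of the threshold, 9 passed it only under an alternative and 2 lost it.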

Other observations

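In 4 cases a pair of Pcdhg genes had the same gene-specific count of at least 10 within a library: Pcdhgc3 and Pcdhgc4 (217) and Pcdhga8 and Pcdhgb7 (197) in noCRS replicate 2, and Pcdhgb1 and Pcdhga4 (119) and Pcdhga7 and Pcdhga11 (820) in noCRS replicate 3. Pcdhgb1 and Pcdhga4 share 3154 and 3157 of their exon bases with other genes, more than the 2116 bases common to the cluster. Their reads above the lowest count therefore need not be specific to either gene. The cause of the 4 ties was not tested.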
